A study of Mus musculus with 18 samples.

Results

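The genes described here are 41 genes of hepatic stellate cells and the extracellular matrix, out of 58126 genes in the expression table. They were picked by symbol from a list, which was chosen with earlier results of these data known. All 41 symbols were found once. RNA sequencing had been done on 18 mouse liver libraries in 5 groups, and values are given as TPM, the share of transcripts, a unit that is adjusted for transcript length and for the total of the library. The mice were C57BL/6, per the series title, and the knocked-out gene was Ftcd, which encodes formimidoyltransferase cyclodeaminase, an enzyme of histidine and folate metabolism. The groups were tumours of Ftcd liver-knockout (LKO) mice treated with diethylnitrosamine (DEN, 3 libraries), nontumour liver of DEN-treated LKO mice (3), nontumour liver of DEN-treated mice labelled WT (6), liver of untreated LKO mice (3) and liver of untreated mice labelled WT (3). DEN, a carcinogen that liver cells convert to a DNA-alkylating agent, was injected into the peritoneum at 20 mg/kg on postnatal day 14. Tissue was taken 12 months after the injection, and from untreated mice at 12 months of age. All groups were kept on the same chow, and the mice labelled WT were littermates, per the series design. The labels do not say which driver removed the gene, and they do not say whether each library came from a separate animal, so p-values measure the spread between these libraries, which may be technical in part. The tumours were dissected from the livers.

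Stellate cells lie between hepatocytes and the sinusoidal endothelium and store vitamin A. On injury they turn into myofibroblasts that contract and secrete collagen, a process driven by transforming growth factor beta and platelet-derived growth factor. The balance of collagens, crosslinking enzymes, matrix proteases and protease inhibitors then decides how much scar builds up, and in liver tumours the same genes also come from vessel walls, portal fibroblasts and the tumour's own stroma.

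The libraries did not all follow their labels. Ftcd had 0.10 to 1.75 TPM in DEN LKO tumours, 0.34 to 1.01 TPM in DEN LKO nontumour liver and 1.75 to 3.16 TPM in untreated LKO liver. Among the libraries labelled WT it had 61.2 to 106 TPM in 6, but 2.36, 2.5 and 1.77 TPM in DEN library 1, DEN library 2 and untreated library 3. These 3 libraries have the Ftcd level of knockouts, so groups are called by their labels throughout, every direction against a WT group rests on those labels, and the main results are given with and without these 3. All libraries labelled WT were XX by Xist and Y-linked transcripts, as were number 1 of the DEN LKO tumours and number 1 of DEN LKO nontumour liver, while the other DEN LKO libraries and all untreated LKO libraries were XY. Transcripts encoded in mitochondrial DNA took 10.5% to 31.4% of TPM in DEN LKO tumours, 17.9% to 36.9% in DEN LKO nontumour liver, 4.39% to 38.8% in DEN liver labelled WT, 17.9% to 30.9% in untreated LKO liver and 4.24% to 23.2% in untreated liver labelled WT. Sex and genotype therefore cannot be told apart in untreated liver, and the mitochondrial share also moved with the groups. Only the DEN LKO groups held both XX and XY libraries, so every fit with a term for XX or XY takes that term from them. There the XX library, number 1, also had the highest mitochondrial share of its group, at 31.4% and 36.9%. The term therefore cannot separate sex from other traits of those libraries. The table gives no read counts, so the depth behind a value is unknown.

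Most of the 41 genes were low in whole liver. A gene was tested where it reached 1 TPM in at least 3 of the 18 libraries, which 32 of the 41 did. Passing meant an adjusted p under 0.05 in limma, a linear model fitted to log2(TPM + 1) of all 13872 genes that met that level, with the Benjamini-Hochberg adjustment over all of them. By that test 0 of the 32 genes passed in any of the 7 comparisons. Stellate cell markers were above 0 in all 18 libraries, 9 of the 9 listed, and their summed TPM lay between 60.9 and 414. Des, Reln, Pdgfrb, Colec11 and Ecm1 are themselves among the 41 genes, so these values do not check the label independently. Of the markers outside the 41, Lrat, Rgs5, Hgf and Ngfr, only Rgs5 is given here, at 0.71 to 10.04 TPM. It alone does not settle the label. Of the 9 listed markers 7 were tested, among them Rgs5 and all those that are members. Lrat, Hgf and Ngfr therefore did not all reach the level for testing. Ecm1, which in mouse liver is also made by hepatocytes, was the largest part of the marker sum. Without Ecm1 the 40 other genes summed to 40.9, 147 and 296 TPM in DEN LKO tumours, to 69.9, 92.8 and 147 TPM in DEN LKO nontumour liver, and to between 56.4 and 420 TPM (median 195 TPM) in DEN liver labelled WT. In untreated mice the sums were 51.7, 92.6 and 61.0 TPM in LKO liver and 214, 119 and 60.0 TPM in liver labelled WT. The sums of every pair of groups overlapped. In whole tissue, fewer stellate cells and less RNA of these genes per cell cannot be told apart.

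**Figure D1:**
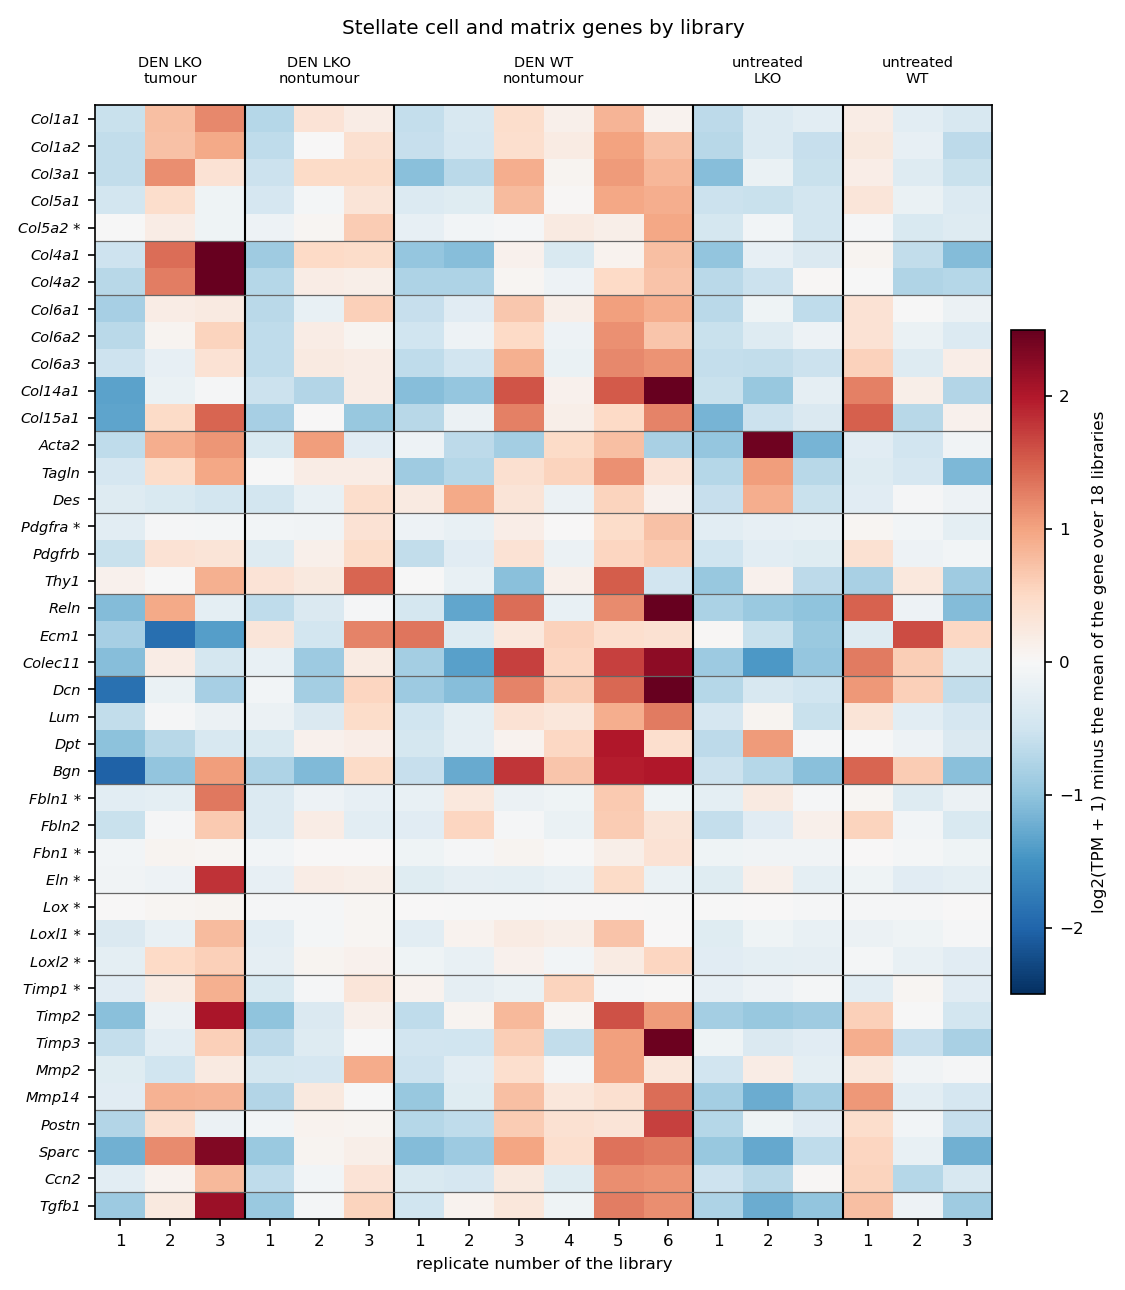
Each row is 1 of the 41 genes and each column 1 of the 18 libraries, with colour giving log2(TPM + 1) minus the gene's mean over all libraries, and horizontal lines separate the functional groups. An asterisk marks the 9 genes that were too low to be tested. DEN LKO tumour 3 and DEN libraries 5 and 6 labelled WT are high over many rows, and library 1 of each of the 3 DEN groups is low.

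The fibrillar collagens form the tensile fibres of scar tissue, and all 5 were low. Col1a1, a chain of type I collagen, had 0.26, 2.13 and 3.26 TPM in DEN LKO tumours, 0.13, 1.34 and 1.10 TPM in DEN LKO nontumour liver, 0.22 to 2.31 TPM (median 0.995 TPM) in DEN liver labelled WT, 0.18, 0.46 and 0.53 TPM in untreated LKO liver and 1.10, 0.55 and 0.41 TPM in untreated liver labelled WT. Every pair of groups overlapped, and library 1 was the lowest in the 3 DEN groups and in untreated LKO liver. Col1a2, the other chain of type I collagen, had 0.49, 2.77 and 3.39 TPM in DEN LKO tumours, 0.46, 1.28 and 2.01 TPM in DEN LKO nontumour liver, 0.53 to 3.53 TPM (median 1.81 TPM) in DEN liver labelled WT, 0.41, 0.79 and 0.52 TPM in untreated LKO liver and 1.70, 0.98 and 0.44 TPM in untreated liver labelled WT. The same libraries were lowest, and again all groups overlapped. Col3a1, the chain of type III collagen, had 1.25, 6.63 and 3.40 TPM in DEN LKO tumours, 1.38, 3.79 and 3.75 TPM in DEN LKO nontumour liver, 0.67 to 6.22 TPM (median 3.87 TPM) in DEN liver labelled WT, 0.64, 2.07 and 1.32 TPM in untreated LKO liver and 2.86, 1.75 and 1.32 TPM in untreated liver labelled WT. Library 1 was once more the lowest of each DEN group, and the 6.63 TPM of tumour 2 was the highest value of all. Col5a1, a chain of type V collagen that limits fibril width, ranged from 0.09 to 2.15 TPM. Its untreated LKO libraries (0.11, 0.09 and 0.17 TPM) were below all untreated libraries labelled WT (0.97, 0.44 and 0.27 TPM). Col5a2, its partner chain, ranged from 0.05 to 1.85 TPM and was not tested.

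Type IV collagen is the mesh of basement membranes around vessels, and its genes gave the highest tumour values of the collagens. Col4a1, the more abundant chain, had 2.48, 12.2 and 62.9 TPM in DEN LKO tumours, 1.69, 6.07 and 5.83 TPM in DEN LKO nontumour liver, 1.39 to 7.38 TPM (median 3.58 TPM) in DEN liver labelled WT, 1.5, 3.32 and 2.88 TPM in untreated LKO liver and 4.23, 2.25 and 1.36 TPM in untreated liver labelled WT. Tumours 2 and 3 stood above every library of the other groups, while tumour 1 lay among them. Col4a2, its partner, had 0.62, 5.33 and 17.8 TPM in DEN LKO tumours, 0.59, 1.98 and 1.87 TPM in DEN LKO nontumour liver, 0.52 to 3.28 TPM (median 1.54 TPM) in DEN liver labelled WT, 0.63, 0.80 and 1.64 TPM in untreated LKO liver and 1.60, 0.55 and 0.58 TPM in untreated liver labelled WT. The order was the same, with tumours 2 and 3 above all other libraries and tumour 1 inside their range. The Col4a1 level was above the Col4a2 level, per length, in 18 of 18 libraries, by a ratio of 1.61 to 4.15 (median 2.66). The tumour mean was 7.33 TPM without tumour 3 and 25.8 TPM with it for Col4a1, and 2.98 and 7.91 TPM for Col4a2. The summed TPM of 9 endothelial markers was 65.2, 65.7 and 116 TPM in tumours 1, 2 and 3 and 59.6 to 167 TPM in DEN liver labelled WT, and the part of vessels in the type IV collagen values was not tested. Col4a1 (chr8:11198423-11312826, minus strand) and Col4a2 (chr8:11312805-11449287, plus strand) start next to each other and run in opposite directions. In GENCODE M21 they share the 22 bases chr8:11312805-11312826, shown on the plus strand because reads from them could be counted for either gene.
Col4a1 and Col4a2 overlap: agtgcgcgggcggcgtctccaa

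Among the other collagens, type VI forms beaded filaments around cells. Its chains Col6a1, Col6a2 and Col6a3 ranged from 0.17 to 3.27, 0.11 to 2.95 and 0.09 to 2.90 TPM. Each was highest in DEN library 5 labelled WT. Col14a1, which coats the surface of collagen fibrils, had 0.57, 2.54 and 2.93 TPM in DEN LKO tumours, 1.76, 1.41 and 3.52 TPM in DEN LKO nontumour liver, 0.92 to 21.8 TPM (median 6.89 TPM) in DEN liver labelled WT, 1.72, 1.08 and 2.42 TPM in untreated LKO liver and 8.52, 3.41 and 1.40 TPM in untreated liver labelled WT. The 4 highest libraries were DEN 3, 5 and 6 and untreated 1 labelled WT, all with a high Ftcd level, whereas DEN 1 and 2 labelled WT, at 0.92 and 1.04 TPM, were below all nontumour LKO libraries. Col15a1, a collagen of the zone next to basement membranes, had 0.48, 4.15 and 9.11 TPM in DEN LKO tumours, 1.09, 2.70 and 0.92 TPM in DEN LKO nontumour liver, 1.29 to 7.81 TPM (median 3.67 TPM) in DEN liver labelled WT, 0.66, 1.56 and 1.86 TPM in untreated LKO liver and 9.35, 1.30 and 2.96 TPM in untreated liver labelled WT. Tumour 3 and untreated library 1 labelled WT were highest, and every pair of groups overlapped.

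The contractile genes mark activated stellate cells and smooth muscle. Acta2, alpha smooth muscle actin, had 1.63, 6.63 and 7.79 TPM in DEN LKO tumours, 2.13, 7.42 and 2.36 TPM in DEN LKO nontumour liver, 1.28 to 5.89 TPM (median 2.18 TPM) in DEN liver labelled WT, 1.10, 21.1 and 0.84 TPM in untreated LKO liver and 2.37, 1.93 and 2.87 TPM in untreated liver labelled WT. Untreated LKO library 2 was far above its own group. The summed TPM of 7 smooth muscle markers was 41.2 TPM in that library, against 3.72 and 3.95 TPM in the other untreated LKO libraries. Acta2 and Tagln are themselves among these 7 markers, at 21.1 and 7.08 TPM in that library, so the sum does not check them independently. The part of vessel tissue in the Acta2 value was not tested. Tagln, the actin-binding protein transgelin, had 1.94, 4.34 and 6.60 TPM in DEN LKO tumours, 2.89, 3.47 and 3.44 TPM in DEN LKO nontumour liver, 1.11 to 7.68 TPM (median 4.08 TPM) in DEN liver labelled WT, 1.37, 7.08 and 1.43 TPM in untreated LKO liver and 2.11, 1.92 and 0.79 TPM in untreated liver labelled WT. The same untreated LKO library stood out, and DEN library 5 labelled WT was highest. Des, the intermediate filament desmin of stellate cells and muscle, had 1.37, 1.29 and 1.15 TPM in DEN LKO tumours, 1.17, 1.60 and 3 TPM in DEN LKO nontumour liver, 1.67 to 4.72 TPM (median 2.59 TPM) in DEN liver labelled WT, 0.99, 4.57 and 1.02 TPM in untreated LKO liver and 1.43, 1.89 and 1.73 TPM in untreated liver labelled WT. All 3 tumours were below all 6 DEN libraries and all 3 untreated libraries labelled WT, and overlapped both LKO groups. The promoter of Des is shown because its gene separated those groups. It is the 250 bases before the RefSeq start on GRCm38, the assembly also called mm10, at chr1:75360042-75360291 on the plus strand. Capitals mark 2 GC boxes (GGGCGG) read on the other strand, whose first bases lie 87 and 69 bases before the start.
Des promoter: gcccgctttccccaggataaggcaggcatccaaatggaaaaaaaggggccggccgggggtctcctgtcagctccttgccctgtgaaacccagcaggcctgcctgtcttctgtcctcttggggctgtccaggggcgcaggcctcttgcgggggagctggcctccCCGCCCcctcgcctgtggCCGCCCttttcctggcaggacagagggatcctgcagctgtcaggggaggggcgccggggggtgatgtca
For Acta2, the standard marker of activated stellate cells, short windows are shown around 2 CArG boxes, the element that serum response factor binds (CC, then 6 bases of which at least 5 are A or T, then GG). They lie 84 and 34 bases before the RefSeq start on the minus strand, at chr19:34255443-34255462 and chr19:34255393-34255412, with the CArG box in capitals. GENCODE M21 places Acta2 at chr19:34241090-34255590, so in that annotation both windows lie inside the gene.
Acta2 CArG box 84: gaggtCCCTATATGGttgtg
Acta2 CArG box 34: ttgctCCTTGTTTGGgaagc

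**Figure D2:**
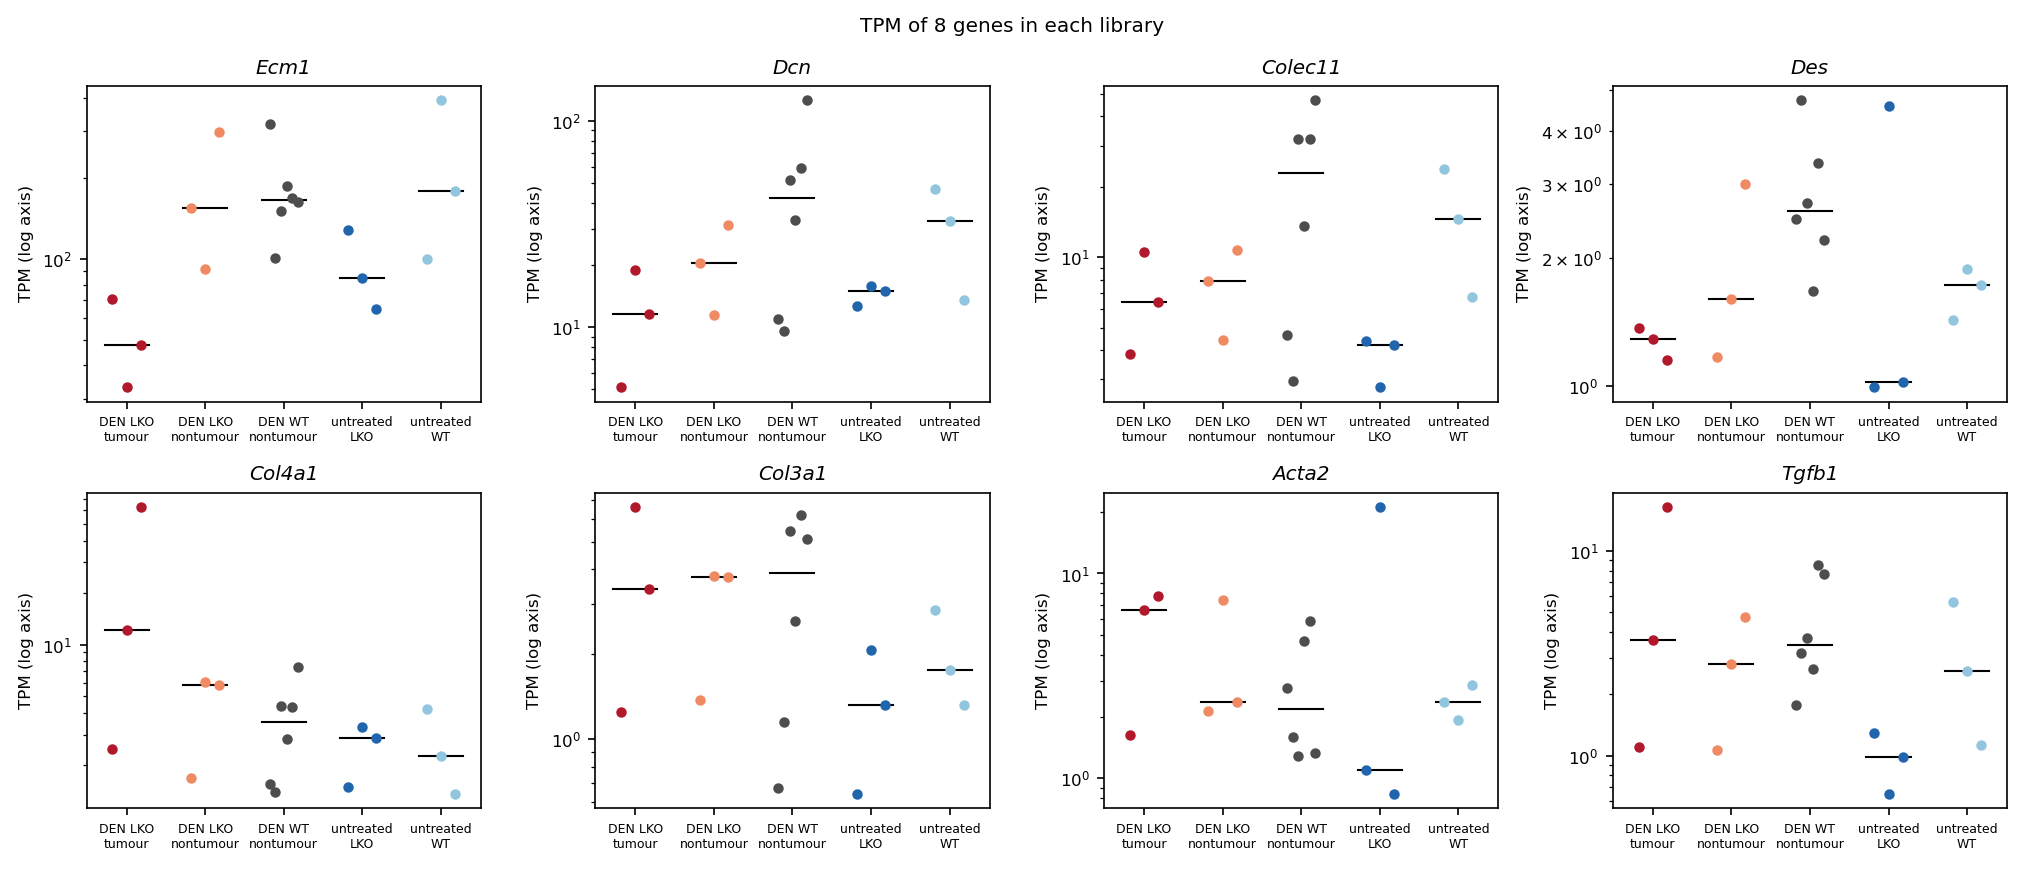
TPM of 8 genes on log axes, 1 point per library, with a line at the group median. All tumour points of Ecm1 lie below the DEN nontumour points of both genotypes, Dcn and Colec11 have 4 high and 2 low points in DEN liver labelled WT, and 1 untreated LKO library is high for Des and Acta2.

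Of the surface proteins, Pdgfra and Pdgfrb are the receptors for platelet-derived growth factor, and Pdgfrb is the one that activated stellate cells respond through. Pdgfra ranged from 0.07 to 1.12 TPM and was not tested. Pdgfrb ranged from 0.10 to 1.64 TPM, and its untreated LKO libraries (0.19, 0.40 and 0.36 TPM) were below the untreated libraries labelled WT (1.18, 0.54 and 0.60 TPM). Thy1, a surface protein of portal fibroblasts and, in mice, of T cells, had 3.49, 3.11 and 6.63 TPM in DEN LKO tumours, 4.22, 3.88 and 10.3 TPM in DEN LKO nontumour liver, 1.01 to 10.8 TPM (median 2.88 TPM) in DEN liver labelled WT, 1.16, 3.49 and 1.65 TPM in untreated LKO liver and 1.35, 3.96 and 1.25 TPM in untreated liver labelled WT. All 3 DEN LKO nontumour libraries were above all 3 untreated LKO libraries. The summed TPM of 7 T and NK cell markers was 6.82, 26.3 and 19.6 TPM in DEN LKO nontumour liver and 3.45, 2.70 and 3.37 TPM in untreated LKO liver, and its part in the Thy1 difference was not tested.

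Stellate cells also secrete proteins that are not fibrous matrix. Ecm1, extracellular matrix protein 1, which in mouse liver keeps stored transforming growth factor beta inactive, had 70.5, 33.1 and 47.8 TPM in DEN LKO tumours, 155, 91.5 and 299 TPM in DEN LKO nontumour liver, 101 to 319 TPM (median 166 TPM) in DEN liver labelled WT, 128, 84.9 and 65.2 TPM in untreated LKO liver and 100.04, 391 and 179.66 TPM in untreated liver labelled WT. All 3 tumours were below all DEN nontumour libraries of both genotypes and below the untreated libraries labelled WT, and they overlapped untreated LKO liver. The summed TPM of 9 hepatocyte markers was 41689 to 89886 TPM in tumours, 51450 to 91850 TPM in DEN LKO nontumour liver and 45344 to 150120 TPM in DEN liver labelled WT, and its part in the Ecm1 difference was not tested. The gene lies at chr3:95734147-95739569 on the minus strand. Its promoter is shown because Ecm1 was the most abundant of the 41 genes and the lowest in tumours by fold. The window is the 250 bases before the RefSeq start on GRCm38, chr3:95739570-95739819 on the minus strand. Capitals mark a GC box (GGGCGG) 42 bases and a TATA box (TATAAA) 27 bases before the start.
Ecm1 promoter: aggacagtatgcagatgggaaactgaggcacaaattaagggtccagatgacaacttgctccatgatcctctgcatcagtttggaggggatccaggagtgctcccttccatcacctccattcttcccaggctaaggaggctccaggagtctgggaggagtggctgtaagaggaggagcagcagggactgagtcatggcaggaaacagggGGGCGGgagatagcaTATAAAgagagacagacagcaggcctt
Colec11, a lectin of the complement system, had 3.86, 10.5 and 6.45 TPM in DEN LKO tumours, 7.89, 4.41 and 10.8 TPM in DEN LKO nontumour liver, 2.95 to 46.9 TPM (median 22.8 TPM) in DEN liver labelled WT, 4.38, 2.77 and 4.20 TPM in untreated LKO liver and 23.9, 14.5 and 6.75 TPM in untreated liver labelled WT. The 4 DEN libraries labelled WT with a high Ftcd level had 13.6 to 46.9 TPM, above every tumour and LKO library, and the other 2 had 4.63 and 2.95 TPM. Reln, reelin, a marker of resting stellate cells, had 0.51, 5.13 and 1.68 TPM in DEN LKO tumours, 1.04, 1.48 and 2.12 TPM in DEN LKO nontumour liver, 0.30 to 28.2 TPM (median 4.03 TPM) in DEN liver labelled WT, 0.84, 0.68 and 0.58 TPM in untreated LKO liver and 7.84, 1.92 and 0.50 TPM in untreated liver labelled WT. DEN library 6 labelled WT alone was above 8 TPM, and all DEN LKO nontumour libraries were above the untreated LKO libraries.

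The small proteoglycans bind collagen and set how its fibrils assemble. Dcn, decorin, had 5.10, 18.9 and 11.6 TPM in DEN LKO tumours, 20.4, 11.4 and 31.3 TPM in DEN LKO nontumour liver, 9.62 to 126 TPM (median 42.4 TPM) in DEN liver labelled WT, 12.6, 15.9 and 14.9 TPM in untreated LKO liver and 46.5, 32.8 and 13.6 TPM in untreated liver labelled WT. DEN libraries 3 to 6 labelled WT were above every tumour and every LKO library, while DEN 1 and 2 labelled WT, at 10.97 and 9.62 TPM, lay within the tumour range. Bgn, biglycan, had 2.82, 6.81 and 30.7 TPM in DEN LKO tumours, 8.04, 6.19 and 20.5 TPM in DEN LKO nontumour liver, 5.43 to 60.7 TPM (median 38.0 TPM) in DEN liver labelled WT, 9.70, 8.37 and 6.53 TPM in untreated LKO liver and 41.4, 22.9 and 6.45 TPM in untreated liver labelled WT. Tumour 3 reached 30.7 TPM, and the DEN libraries labelled WT split in the same way, with 24.0 to 60.7 TPM in numbers 3 to 6 and 9.40 and 5.43 TPM in numbers 1 and 2. The Bgn promoter is shown because Bgn had the largest difference between DEN LKO nontumour liver and DEN liver labelled WT. The 250 bases before its RefSeq start are chrX:73483351-73483600 on the plus strand of GRCm38, and capitals mark 3 GC boxes on the other strand, 34, 10 and 6 bases before the start, of which the last 2 overlap.
Bgn promoter: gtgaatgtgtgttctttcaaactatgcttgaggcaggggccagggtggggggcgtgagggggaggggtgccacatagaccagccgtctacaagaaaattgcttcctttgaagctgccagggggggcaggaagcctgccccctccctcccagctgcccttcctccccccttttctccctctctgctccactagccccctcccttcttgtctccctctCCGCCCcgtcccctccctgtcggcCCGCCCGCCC
Lum, lumican, ranged from 0.14 to 3.33 TPM. Dpt, dermatopontin, which binds decorin, had 0.21, 0.53 and 0.87 TPM in DEN LKO tumours, 0.90, 1.66 and 1.77 TPM in DEN LKO nontumour liver, 0.81 to 8.90 TPM (median 1.96 TPM) in DEN liver labelled WT, 0.57, 4.17 and 1.41 TPM in untreated LKO liver and 1.46, 1.26 and 0.91 TPM in untreated liver labelled WT. All 3 tumours were below all 3 DEN LKO nontumour libraries and overlapped DEN liver labelled WT.

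Elastic fibre and crosslinking genes were low, each with a median under 1 TPM over the 18 libraries. Eln, elastin, ranged from 0.15 to 3.97 TPM and Fbln1, a fibulin of elastic fibres, from 0.03 to 2.26 TPM, both highest in tumour 3 and neither tested. Fbn1, fibrillin of the elastic microfibril, did not exceed 0.41 TPM. Fbln2 was the only one of these 4 that was tested, at 0.04 to 1.48 TPM. The lysyl oxidases crosslink collagen and elastin, and none was tested. Lox was listed at 0 in 5 libraries and reached at most 0.07 TPM, Loxl1 0.03 to 1.29 TPM and Loxl2 0.06 to 0.95 TPM.

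The matrix proteases and their inhibitors set matrix turnover. Mmp14, the membrane-bound protease that activates Mmp2, had 4.6, 11.4 and 11.3 TPM in DEN LKO tumours, 3.08, 7.04 and 5.75 TPM in DEN LKO nontumour liver, 2.56 to 16.9 TPM (median 7.64 TPM) in DEN liver labelled WT, 2.80, 1.89 and 2.80 TPM in untreated LKO liver and 13.4, 4.67 and 4.13 TPM in untreated liver labelled WT. All 3 untreated LKO libraries were below all libraries of untreated liver labelled WT, of DEN LKO nontumour liver and of the tumours. Mmp2, a protease that cuts denatured and type IV collagen, ranged from 0.05 to 2.09 TPM. Timp2, an inhibitor that also takes part in Mmp2 activation, had 0.59, 1.96 and 12.6 TPM in DEN LKO tumours, 0.64, 1.58 and 2.62 TPM in DEN LKO nontumour liver, 1.11 to 8.96 TPM (median 3.64 TPM) in DEN liver labelled WT, 0.84, 0.71 and 0.77 TPM in untreated LKO liver and 3.99, 2.29 and 1.41 TPM in untreated liver labelled WT. Untreated LKO libraries were all below untreated libraries labelled WT, and tumour 3 was the highest. Timp3, an inhibitor held in the matrix, had 0.28, 0.62 and 1.92 TPM in DEN LKO tumours, 0.23, 0.56 and 0.93 TPM in DEN LKO nontumour liver, 0.26 to 9.56 TPM (median 1.19 TPM) in DEN liver labelled WT, 0.80, 0.51 and 0.60 TPM in untreated LKO liver and 2.63, 0.31 and 0.10 TPM in untreated liver labelled WT. DEN library 6 labelled WT was far above the rest, and every pair of groups overlapped. Timp1, an inhibitor that rises in fibrosis, had 0.06, 0.49 and 1.39 TPM in DEN LKO tumours, 0, 0.27 and 0.60 TPM in DEN LKO nontumour liver, 0.11 to 0.92 TPM (median 0.28 TPM) in DEN liver labelled WT, 0.12, 0.18 and 0.26 TPM in untreated LKO liver and 0.08, 0.34 and 0.06 TPM in untreated liver labelled WT. Timp1 was too low to be tested, and only tumour 3 was above 1 TPM.

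Matricellular proteins bind matrix and signal to cells. Sparc, a collagen-binding glycoprotein, had 3.85, 24.3 and 54.3 TPM in DEN LKO tumours, 4.85, 10.7 and 11.3 TPM in DEN LKO nontumour liver, 4.22 to 27.4 TPM (median 17.5 TPM) in DEN liver labelled WT, 4.79, 3.60 and 6.16 TPM in untreated LKO liver and 15.2, 8.80 and 3.86 TPM in untreated liver labelled WT. Tumour 3 was the highest, tumour 1 was among the lowest, and every pair of groups overlapped. Ccn2, connective tissue growth factor, a target of transforming growth factor beta, had 0.90, 1.44 and 3.03 TPM in DEN LKO tumours, 0.48, 1.17 and 1.91 TPM in DEN LKO nontumour liver, 0.70 to 4.11 TPM (median 1.28 TPM) in DEN liver labelled WT, 0.60, 0.42 and 1.32 TPM in untreated LKO liver and 2.35, 0.40 and 0.74 TPM in untreated liver labelled WT. DEN libraries 5 and 6 labelled WT and tumour 3 were the highest. Postn, periostin, ranged from 0.09 to 4.95 TPM, and its DEN LKO nontumour libraries (0.72, 0.92 and 0.91 TPM) were above those of untreated LKO liver (0.10, 0.68 and 0.49 TPM). Tgfb1, the main profibrotic ligand, made by macrophages among others, had 1.10, 3.65 and 16.4 TPM in DEN LKO tumours, 1.06, 2.79 and 4.77 TPM in DEN LKO nontumour liver, 1.76 to 8.52 TPM (median 3.46 TPM) in DEN liver labelled WT, 1.29, 0.65 and 0.99 TPM in untreated LKO liver and 5.65, 2.60 and 1.13 TPM in untreated liver labelled WT. Tumour 3 was the highest of all libraries. The summed TPM of 10 Kupffer cell and macrophage markers was 160, 189 and 1037 TPM in tumours 1, 2 and 3, and 114, 57.5 and 65.1 TPM in untreated LKO liver against 316, 211 and 117 TPM in untreated liver labelled WT. The part of macrophages in Tgfb1 was not tested.

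RefSeq promoter windows were found for 27 of the 41 genes. Searched on both strands over 32851 mouse promoters of 250 bases, GGGCGG was present in 32.7% of promoters and in those of 16 of the 27 genes, and TATAAA in 12.4% and in 3 (Col3a1, Ecm1 and Postn). CCAAT was present in 33.8% and in 6 (Col1a2, Col4a1, Col4a2, Mmp14, Timp1 and Timp2), and the CArG box in 8.6% and in 6 (Acta2, Col1a2, Col6a3, Fbln2, Mmp14 and Timp3). A match describes the letters only.

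Within most groups, 1 library was the highest or the lowest for many of the 32 tested genes, in part as it was for all tested genes. In DEN LKO tumours, library 3 was the highest of the 3 for 21 of the 32 tested genes (65.6%, against 62.8% of all tested genes) and library 1 the lowest for 28 (87.5%, against 68.1%). In DEN liver labelled WT, library 5 was the highest for 17 (53.1%, against 15.4% of all tested genes) and library 6 for 12 (37.5%, against 46.3%), while library 1 was the lowest for 21 (65.6%, against 59.2%). In untreated liver labelled WT, library 1 was the highest for 28 (87.5%, against 64.4%). In untreated LKO liver, libraries 1, 2 and 3 were the highest for 8, 14 and 10 genes. Those were 25.0%, 43.8% and 31.2% of the 32, against 21.2%, 17.5% and 61.3% of all tested genes. The 7 lowest sums without Ecm1 were in libraries with a mitochondrial share of 17.9% or more, apart from DEN library 2 labelled WT, which had 59.9 TPM at 6.47%.

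**Figure D3:**
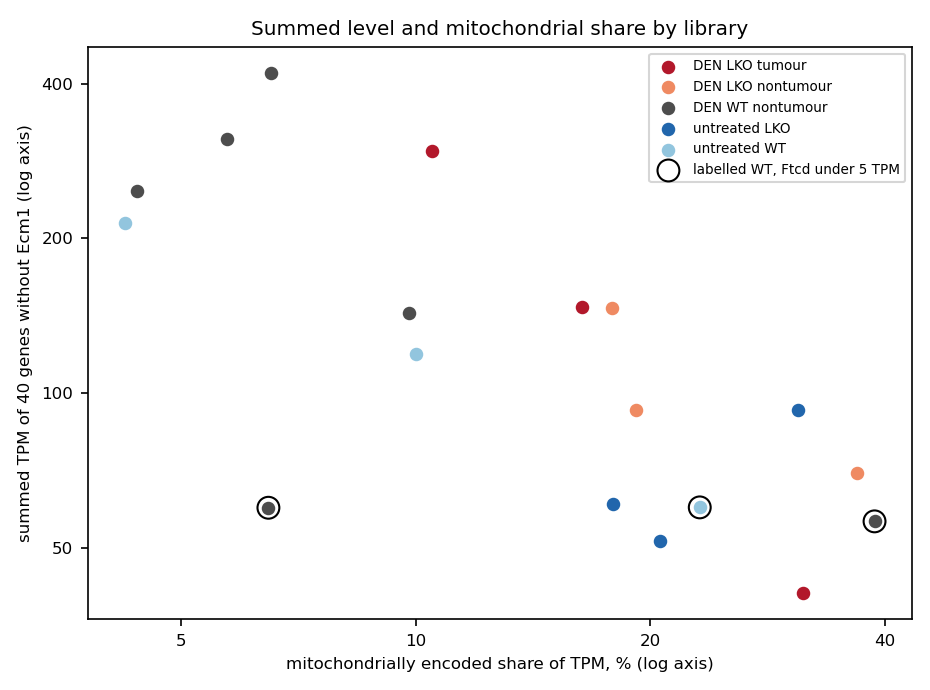
Summed TPM of the 40 genes without Ecm1 against the share of TPM from mitochondrial DNA, both on log axes, 1 point per library coloured by group. Circled points are the 3 libraries labelled WT with Ftcd under 5 TPM, which had sums of 56.4 to 60.0 TPM, and the highest sum was 420 TPM at a share of 6.51%.

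The comparison of DEN LKO tumours with DEN LKO nontumour liver asks what differs between tumours and nontumour liver of the same genotype and treatment. Ecm1 and Dpt were lower in all 3 tumours than in all 3 nontumour libraries, and type IV collagen was higher in 2 tumours, but 0 of the 32 tested genes passed. The background was the same, with 0% of the 13872 genes called. At an unadjusted p under 0.05, 1 of the 32 genes (Ecm1) and 2.74% of all tested genes passed limma. The 2 genes without overlap, both lower, were 6.25% of the 32, against 2.02% of all genes that were lower without overlap. None was higher in that way, as 1.81% of all genes were. Ecm1 had a log2 fold change of -1.73 ± 0.56 (SE), Col4a1 of 1.498 ± 0.76 and Col4a2 of 1.27 ± 0.64. Sparc differed by 1.00 ± 0.80, Dcn by -0.83 ± 0.78, Col15a1 by 0.79 ± 0.67 and Col1a1 by 0.53 ± 0.44, and the adjusted p of each of these 7 genes was 0.943. The median log2 fold change was 0.13 for the 32 genes and 0.23 for all tested genes, and 18 of the 32 were positive. All 4 tested fibrillar collagens were positive (median 0.30), but Col3a1 and Col5a1 turned negative, at -0.06 and -0.09, when libraries were scaled by the median ratio of their genes. Dcn, Bgn, Lum and Dpt were all negative (median -0.46), also under that scaling, which moved the median of all genes from 0.23 to 0.02 and that of the 32 genes to -0.06. Leaving out tumour 3 changed Col4a1 to 0.42 and Col4a2 to 0.42, and leaving out tumour 1 changed them to 2.52 and 2.19.

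Set against DEN liver labelled WT, the tumours had lower Ecm1, Des, Dcn, Bgn and Dpt values and higher Col4a1 and Col4a2 values, and again 0 of the 32 genes passed, where 0.497% of all tested genes (69) did. At an unadjusted p under 0.05, 6 of the 32 passed limma, Col4a1 and Col4a2 upward and Ecm1, Dcn, Dpt and Des downward. That was 18.8% of them, against 10.5% of all tested genes. Ecm1 and Des were the 2 members whose groups did not overlap (6.25%, against 1.14% of all genes that were lower without overlap), and none was higher in that way, as 2.05% of all genes were. Ecm1 had a log2 fold change of -1.81 ± 0.48 (adjusted p = 0.118). Col4a1 differed by 1.76 ± 0.66 (adjusted p = 0.285) and Col4a2 by 1.22 ± 0.55 (adjusted p = 0.438). The proteoglycans were lower, Dcn by -1.59 ± 0.67 (adjusted p = 0.382) and Bgn by -1.42 ± 0.78 (adjusted p = 0.566). Col14a1 stood at -1.13 ± 0.68 (adjusted p = 0.616), Des at -0.72 ± 0.34 (adjusted p = 0.469) and Acta2 at 0.66 ± 0.66 (adjusted p = 0.810). The medians were -0.25 for the 32 genes, of which 11 were positive, and 0.04 for all tested genes. Without tumour 1 they were 0.10, with 17 positive, and 0.24, and without tumour 3 they were -0.56, with 7 positive, and -0.20. Because both comparisons use the same tumours, they do not support each other independently.

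Calls appeared in this comparison when libraries were left out. Without the 3 libraries labelled WT with low Ftcd, Dcn (-2.40 ± 0.50, adjusted p = 0.0214) and Colec11 (-1.99 ± 0.45, adjusted p = 0.0286) passed limma as lower in tumours, 2 of 32 (6.25%) against 3.03% of all tested genes. Without tumour 1, Col4a1 (2.78 ± 0.59, adjusted p = 0.0139) and Col4a2 (2.13 ± 0.47, adjusted p = 0.0174) passed as higher and Ecm1 (-2.08 ± 0.55, adjusted p = 0.0468) as lower, against 3.5% of all genes. Without tumour 3, by contrast, Col4a1 was at 0.68 ± 0.57 (adjusted p = 0.633) and Col4a2 at 0.37 ± 0.50 (adjusted p = 0.766). Adding the mitochondrial share to the model left Ecm1 alone as passing limma (-2.16 ± 0.45, adjusted p = 0.0327), where 1.16% of all genes did. The median was then 0.17 for the 32 genes and 0.31 for all tested genes. With a term for XX or XY no member passed, and Col4a1 was at 0.29 ± 0.65 and Ecm1 at -1.57 ± 0.62. The part of sex and of the mitochondrial share in these differences was not tested beyond these fits.

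**Figure D4:**
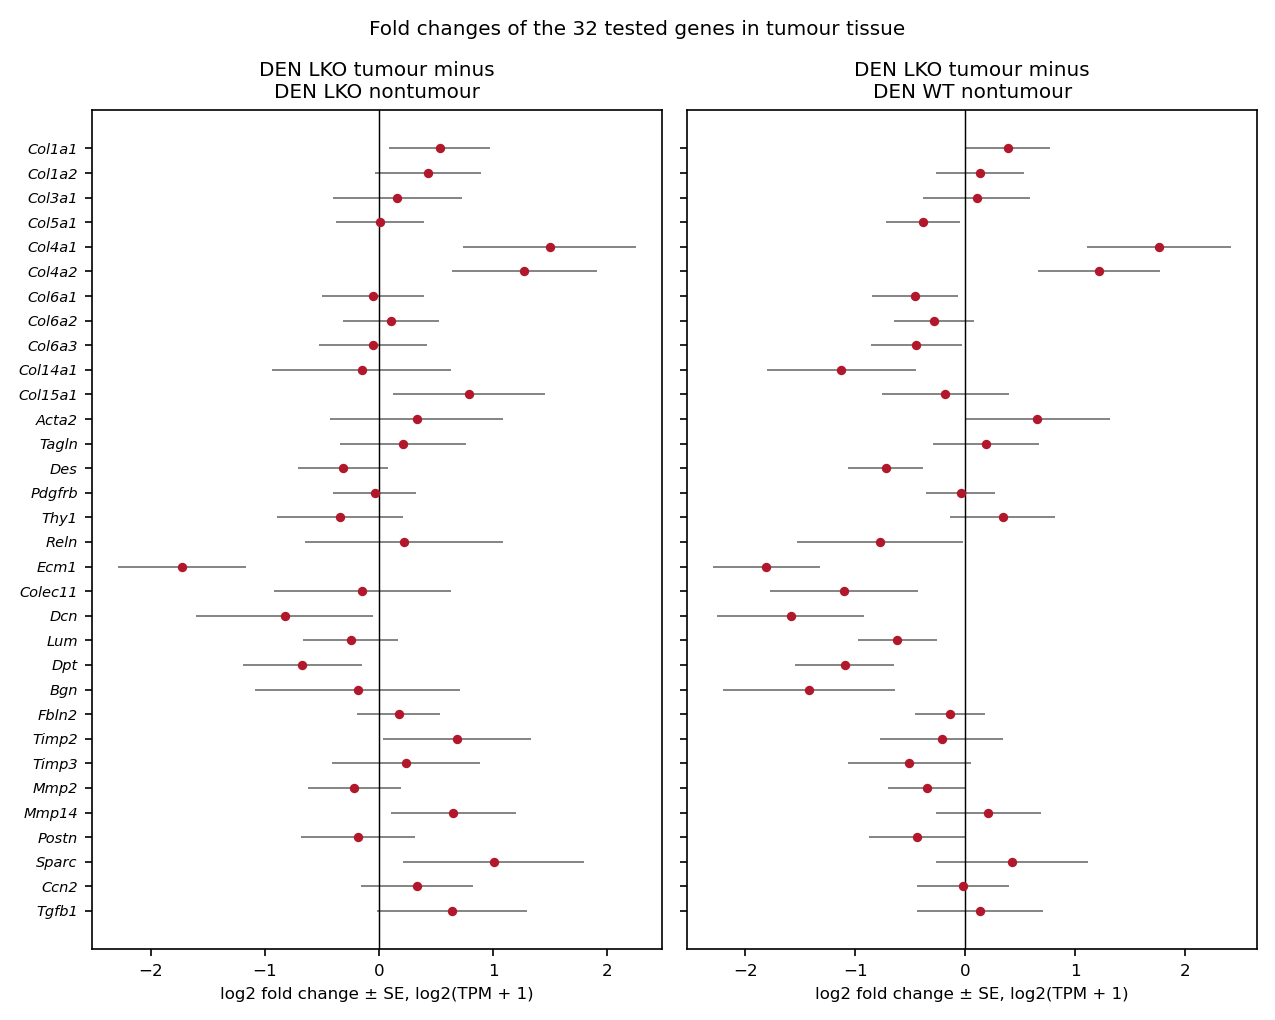
Log2 fold changes of the 32 tested genes with bars of 1 SE, for DEN LKO tumours minus DEN LKO nontumour liver (left) and minus DEN liver labelled WT (right). Ecm1 is the lowest point in both panels, at -1.73 and -1.81, and Col4a1 the highest, at 1.498 and 1.76.

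In nontumour liver after DEN, the means of Bgn, Reln, Colec11, Col14a1 and Col15a1 on the log2 scale were the furthest apart, each lower in LKO libraries than in those labelled WT. None of the 32 genes passed, where 0.0577% of all tested genes (8) did, and at an unadjusted p under 0.05 limma called 0 of the 32 and 13.1% of all genes. No member separated the groups without overlap, where 2.33% of all genes did as higher and 1.73% as lower in LKO liver. Bgn differed by -1.24 ± 0.78 (adjusted p = 0.456) and Reln by -0.99 ± 0.75 (adjusted p = 0.516). Col14a1 was at -0.97 ± 0.68 (adjusted p = 0.483), Col15a1 at -0.97 ± 0.58 (adjusted p = 0.435), Colec11 at -0.96 ± 0.67 (adjusted p = 0.486) and Timp2 at -0.90 ± 0.56 (adjusted p = 0.453). In all, 4 of 32 genes were positive, with a median of -0.39, against -0.19 for all tested genes, and median-ratio scaling put these medians at -0.21 and 0.02. The sign of the member median depended on the fit. The collagens of types VI, XIV and XV were all negative, and so were Mmp14, Timp2, Timp3 and Mmp2, of which Mmp2 turned to 0.02 under median-ratio scaling. Thy1 went the other way, at 0.69 ± 0.48, and Ecm1 hardly differed, at -0.08 ± 0.48.

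This comparison depended on the 3 low-Ftcd libraries. Without them 3 genes passed limma as lower in LKO liver, Colec11 (-1.84 ± 0.45, adjusted p = 0.0321), Col14a1 (-1.79 ± 0.52, adjusted p = 0.0475) and Bgn (-2.08 ± 0.61, adjusted p = 0.0492), and the median of the 32 genes was -0.73. The 3 of 32 stand beside 8.35% (1159) of all tested genes that then passed, whose median was -0.41. When the model held the mitochondrial share, 27 of the 32 genes were positive, the median of the members was 0.22 against 0.21 for all tested genes, and Bgn, Col14a1, Reln and Timp2 were no longer negative, at 0.0017, 0.18, 0.0027 and 0.075. A term for XX or XY gave 2 of 32 positive and a median of -0.98 against -0.63 for all tested genes. At an unadjusted p under 0.05, limma then called 9 of the 32 members and 3677 of the 13872 tested genes. After the adjustment 0 members passed. The part of sex and of the mitochondrial share was not tested beyond these fits.

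In untreated mice, LKO liver had lower Colec11, Mmp14, Bgn, Ecm1, Reln and Col15a1 values than liver labelled WT, and Mmp14, Timp2, Pdgfrb, Col5a1, Colec11 and Col6a3 did not overlap between the groups. Those 6 genes were 18.8% of the 32, against 8.97% of all tested genes that were lower without overlap. None was higher without overlap, as 2.45% of all tested genes were. By limma 0 of the 32 passed, where 0.433% of all tested genes (60) did, and 0 of the 32 against 4.15% of all genes had an unadjusted p under 0.05. Colec11 had a log2 fold change of -1.61 ± 0.78, Mmp14 of -1.11 ± 0.55 and Bgn of -1.11 ± 0.90. Ecm1 was at -1.09 ± 0.56, Reln at -0.996 ± 0.87, Col15a1 at -0.99 ± 0.67 and Tgfb1 at -0.92 ± 0.66, and each adjusted p was 0.831. The median of the members was -0.35, almost that of all tested genes (-0.33), and 6 of 32 were positive. Those 6 were Acta2, Tagln, Des, Dpt and both type IV collagens. Untreated LKO library 2 was the highest of its group for Acta2, Tagln, Des and Dpt. Its smooth muscle marker sum was also high, but that sum includes Acta2 and Tagln. Scaling the libraries by the median ratio of their genes moved the median of all genes from -0.33 to 0.00 and that of the members to -0.12. Without untreated library 3 labelled WT and the 2 low-Ftcd DEN libraries, 0 members passed. The smallest adjusted p by limma was 0.197 (Colec11, -2.06 ± 0.54). The member median was then -0.54, against -0.41 for all tested genes. With a term for XX or XY the member median was -1.47 with 0 of 32 positive, against -0.95 for all tested genes. That term is set by the DEN LKO groups alone, so it does not separate sex from genotype in untreated liver. A fit that held the mitochondrial share instead gave a member median of 0.10 with 19 positive, against 0.03 for all tested genes. In either fit 0 members passed.

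DEN liver labelled WT, compared with untreated liver labelled WT, addresses the late effect of the carcinogen. Of the 32 fold changes 31 were positive, with a median of 0.40 against 0.01 for all tested genes. Without untreated library 3 labelled WT 22 were positive, with a median of 0.15 against -0.08. Limma called 0 of the 32 and 0% of all genes, and 0 of the 32 and 0.685% of all genes had an unadjusted p under 0.05. No member separated the groups, as 0.49% of all genes did upward and 0.18% downward. Tagln differed by 0.77 ± 0.48, Sparc by 0.62 ± 0.69, Timp3 by 0.58 ± 0.56, Reln by 0.56 ± 0.75 and Dpt by 0.56 ± 0.45. Des was at 0.48 ± 0.34 and Ccn2 at 0.42 ± 0.42, and every adjusted p was 1. Without the 3 low-Ftcd libraries the median was 0.57, against 0.15 for all tested genes, and 0 genes passed. Leaving out untreated library 3 labelled WT alone changed Reln to -0.028.

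In LKO mice the same comparison gave higher values in DEN nontumour liver than in untreated liver for most of the genes. Mmp14, Col5a1, Postn, Thy1, Colec11 and Reln were higher in all 3 DEN LKO nontumour libraries than in all 3 untreated LKO libraries, 18.8% of the 32 against 9.86% of all tested genes. None was lower in all 3, as 2.46% of all genes were. None passed limma, where 0.0649% of all genes (9) did, and Thy1 alone of the 32 had an unadjusted p under 0.05, against 5.96% of all genes. Thy1 differed by 1.16 ± 0.55 (adjusted p = 0.837). For Tgfb1 the log2 fold change was 0.86 ± 0.66, for Ecm1 0.85 ± 0.56, for Colec11 0.81 ± 0.78, for Mmp14 0.80 ± 0.55, for Col3a1 0.74 ± 0.56 and for Col1a2 0.46 ± 0.47, each with an adjusted p of 1. Of the 32 genes 30 were positive, with a median of 0.39 against 0.12 for all tested genes, or 0.25 against -0.02 under median-ratio scaling. The marker sum of Kupffer cells and macrophages was 177, 263 and 511 TPM in DEN LKO nontumour liver and 114, 57.5 and 65.1 TPM in untreated LKO liver, and its part in these differences was not tested.

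The difference between both DEN effects, LKO minus WT by label, was tested as an interaction. Limma called 0 of the 32 and 0% of all genes, and 0 of the 32 and 2.39% of all genes had an unadjusted p under 0.05. Ecm1 stood at 1.01 ± 0.74, Dpt at -0.72 ± 0.69, Thy1 at 0.69 ± 0.73, Mmp14 at 0.67 ± 0.72, Timp3 at -0.65 ± 0.86 and Colec11 at 0.65 ± 1.03, each with an adjusted p of 1. The members' median was 0.05, against 0.11 for all tested genes, -0.04 under median-ratio scaling and -0.14 without the 3 low-Ftcd libraries. Since the SE of these differences was 0.69 or more, interactions of the sizes seen could not be told from none with these libraries.

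**Figure D5:**
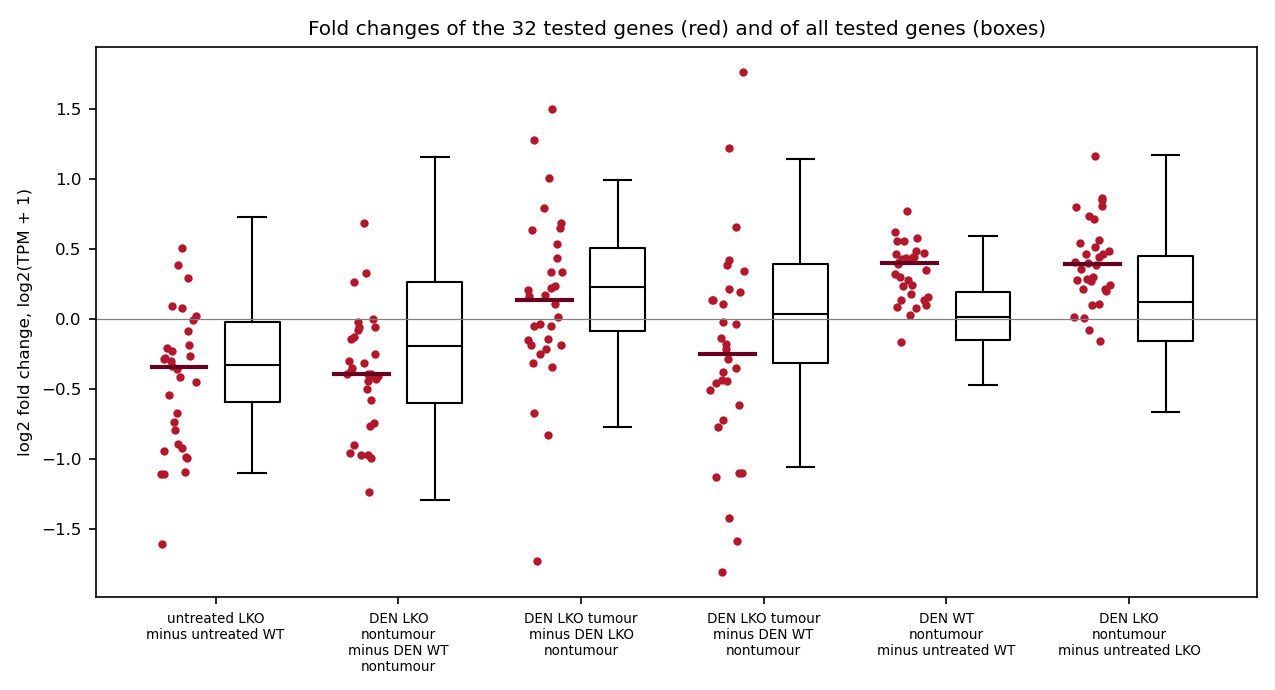
Log2 fold changes of the 32 tested genes (red points, with a bar at their median) beside those of all 13872 tested genes (boxes from the 25th to the 75th percentile, whiskers from the 5th to the 95th) in the 6 comparisons between groups. The member median is 0.40 against 0.01 for DEN against untreated liver labelled WT, and -0.25 against 0.04 for tumours against DEN liver labelled WT.

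Genes that act with the 41 were followed in 6 further lists. Of the platelet-derived growth factor ligands, all 4 were tested, and Pdgfa (chr5:138976014-138997370, minus strand) was higher in tumours than in DEN liver labelled WT. Pdgfa had 6.86, 12.8 and 17.1 TPM in DEN LKO tumours, 3.34, 8.91 and 9.54 TPM in DEN LKO nontumour liver, 1.43 to 3.58 TPM (median 1.99 TPM) in DEN liver labelled WT, 3.60, 4.23 and 4.57 TPM in untreated LKO liver and 2.07, 1.82 and 2.13 TPM in untreated liver labelled WT. Every tumour was above every DEN library labelled WT, with means of 12.3 ± 5.16 TPM (SD, n = 3) and 2.14 ± 0.79 TPM (SD, n = 6), and limma gave a log2 fold change of 2.03 ± 0.34 (adjusted p = 0.0139). It held without the 3 low-Ftcd libraries (2.09, adjusted p = 0.0102) and was lost when the fit held only the compared groups (adjusted p = 0.137), without tumour 2 (0.0585), without tumour 3 (0.0668) and with a term for XX or XY (1.28, adjusted p = 0.333), as well as with the replicate number as a block (adjusted p = 0.473). Pdgfb, the ligand best known to act on stellate cells, averaged 3.12 ± 2.497 TPM in tumours (SD, n = 3) and 0.43 ± 0.29 TPM in DEN liver labelled WT (SD, n = 6) and did not pass. Pdgfc averaged 1.40 ± 1.38 TPM in tumours (SD, n = 3) and 0.69 ± 0.62 TPM in DEN liver labelled WT (SD, n = 6), Pdgfd 0.62 ± 0.02 and 0.55 ± 0.58 TPM, and neither passed. In DEN LKO nontumour liver against DEN liver labelled WT, Pdgfa passed only in fits without the 3 low-Ftcd libraries (1.38 ± 0.37, adjusted p = 0.0397) or without DEN library 1 labelled WT (1.44 ± 0.34, adjusted p = 0.0430). Tumours differed from DEN LKO nontumour liver by 0.71 ± 0.39 for Pdgfa (limma, adjusted p = 0.943). All untreated LKO libraries were above all untreated libraries labelled WT for Pdgfa. That difference was 0.77 ± 0.39 (limma, adjusted p = 0.83), and -0.35 ± 0.42 with a term for XX or XY.

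In the other lists limma passed 0 genes in any comparison. At an unadjusted p under 0.05, tumours against DEN liver labelled WT gave 4 of 19 genes of transforming growth factor beta signalling, 0 of 12 of collagen processing, 2 of 11 of basement membranes, 0 of 3 other proteases and 5 of 9 of resting stellate cells, beside 10.5% of all tested genes. The first list held 27 genes, of which 19 were tested, with a median of 0.12 in tumours against DEN liver labelled WT. The most abundant were Ltbp1, which stores the latent ligand, Itgb5 and Itgav, chains of the integrins that release it, and Eng, a co-receptor. Itgav averaged 13.8 ± 2.45 TPM in tumours (SD, n = 3) and 6.19 ± 3.26 TPM in DEN liver labelled WT (SD, n = 6), while Ltbp1 averaged 17.1 ± 27.7 and 31.8 ± 21.8 TPM. Of 16 genes of collagen processing 12 were tested, with a median of -0.02. The chaperones P4hb and Ppib led this list, P4hb with 479 ± 193 TPM in tumours (SD, n = 3) and 577 ± 290 TPM in DEN liver labelled WT (SD, n = 6). Of 15 basement membrane genes other than type IV collagen 11 were tested, 9 of them positive, with a median of 0.23. Lamc1, a laminin chain, averaged 9.84 ± 8.31 TPM in tumours (SD, n = 3) and 4.6 ± 1.69 TPM in DEN liver labelled WT (SD, n = 6), and Hspg2, perlecan, 9.18 ± 6.72 and 5.45 ± 1.26 TPM. Col18a1, the source of endostatin, went the other way with 63.8 ± 46.0 and 114 ± 73.5 TPM. DEN LKO nontumour liver averaged 3.80 ± 1.55 TPM for Lamc1, 4.94 ± 1.49 TPM for Hspg2 and 46.6 ± 10.25 TPM for Col18a1 (SD, n = 3).

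Of 14 other matrix proteases and inhibitors 3 were tested, of which Mmp19 averaged 6.06 ± 6.44 TPM in tumours (SD, n = 3) and 13.3 ± 9.94 TPM in DEN liver labelled WT (SD, n = 6). Adam17, a sheddase of surface proteins, averaged 5.86 ± 2.89 and 3.18 ± 2.58 TPM. The means in DEN LKO nontumour liver were 3.25 ± 0.96 TPM for Mmp19 and 7.42 ± 1.045 TPM for Adam17 (SD, n = 3). Below the level for testing, Mmp12, the macrophage elastase, averaged 13.8 ± 21.3 TPM in tumours and Plat, tissue plasminogen activator, 10.5 ± 16.7 TPM (SD, n = 3), against 0.34 ± 0.22 and 0.18 ± 0.14 TPM in DEN liver labelled WT (SD, n = 6). Both tumour means came from tumour 3, which had 38.4 and 29.8 TPM, beside a macrophage marker sum of 1037 TPM. Of 14 genes of resting stellate cells 9 were tested, 2 of them positive in tumours against DEN liver labelled WT, with a median of -1.02, against 0.04 for all tested genes. Angptl6, a secreted factor of that list, averaged 2.08 ± 1.25 TPM in tumours (SD, n = 3) and 8.82 ± 4.28 TPM in DEN liver labelled WT (SD, n = 6). Gdf2, the circulating ligand BMP9 made by stellate cells, averaged 0.69 ± 0.55 and 4.85 ± 3.69 TPM. Rgs5, a pericyte gene, averaged 4.36 ± 3.84 and 3.54 ± 3.36 TPM. In DEN LKO nontumour liver Angptl6 averaged 3.43 ± 2.58 TPM, Gdf2 1.51 ± 1.12 TPM and Rgs5 3.90 ± 1.38 TPM (SD, n = 3). None of these differences passed, and all 6 lists were chosen with earlier results of these data known.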

How the data were processed

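RNA from 18 liver and tumour samples had been sequenced, and the authors deposited 1 table of gene-level TPM values, named per sample. The tools listed in the submitters' processing notes are RSEM, HISAT and fastp, with mm10 as the build. Which step each did, and its version, is not given in the sources used here. The deposited TPM keep no read depth, so no counting error can be given. Columns of group means and gene length were not used, and there were 0 other per-sample columns. TPM is relative to each library's total, so a high mitochondrial share lowers every other gene.

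Groups came from the labels. Genes with at least 1 TPM in at least 3 of 18 libraries (13872 of 58126) were fitted with limma 3.58.1 in R 4.3.3 on log2(TPM + 1), with 5 group means, 13 residual degrees of freedom, a trend in the prior variance and Benjamini-Hochberg adjustment over all tested genes in each of 7 comparisons. Fold changes are on that scale and understate those of low genes. The script was tested on simulated data. Means, sums, motif searches and figures were made in Python 3.11.15 with numpy 2.4.6, pandas 2.3.3 and matplotlib 3.10.9.

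The 41 genes and all other lists were chosen with earlier results of these data known. Values were given for the 6 tested genes with the largest absolute fold change in each comparison. They were also given for any gene that passed and for 14 genes whatever their result. These are values per library in the groups of 3 libraries and a range with the median in DEN liver labelled WT. From each further list, genes that passed or up to 4 genes with the highest mean TPM were named, except 1 that is not reported here. Coordinates are from GENCODE M21 (mm10, 55141 gene IDs matched), and promoters from the RefSeq table of GRCm38.p6. Replicate numbers were checked for pairing by correlating deviations from group means. The check did not settle whether same-numbered libraries belong together, and the main fit treats them as unpaired.

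Alternatives were a pseudocount of 0.1, no filter on low values, median-ratio scaling, the compared groups alone, the same with the replicate number as a block, and leaving out each library. After the data were seen, 3 were added: a term for XX or XY, the mitochondrial share as a covariate, and leaving out the 3 libraries labelled WT with Ftcd under 5 TPM.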

Additional observations from a re-analysis of the deposited data

How the results depend on the processing

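Another pseudocount, filter, scaling, set of groups or the block gave 0 of the 32 genes in all 7 comparisons. Leaving out each library in turn gave 0 to 3 in tumours against DEN liver labelled WT (3 without tumour 1) and 0 in the others. Of the alternatives chosen after seeing the data, the mitochondrial share as a covariate gave 1 gene in tumours against DEN liver labelled WT, and leaving out the 3 low-Ftcd libraries gave 2 there and 3 in DEN LKO nontumour liver against DEN liver labelled WT. Some log2 fold changes turned sign. In DEN LKO nontumour liver against DEN liver labelled WT, the mitochondrial covariate gave 0.0017 for Bgn, 0.18 for Col14a1, 0.0027 for Reln and 0.075 for Timp2. In tumours against DEN liver labelled WT, the term for XX or XY gave -0.15 for Acta2. In DEN against untreated liver labelled WT, the log2 fold change of Reln ranged from -0.028 to 1.25 over the libraries left out. The cause of these turns was not tested.

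Correlations of same-numbered libraries ran from -0.631 to 0.608, and no comparison had all 3 above 0.1. Between DEN LKO tumours and DEN LKO nontumour liver they were 0.347, 0.301 and -0.0338 for numbers 1, 2 and 3. Same-numbered libraries of those groups also matched in being XX or XY. Whether they came from the same animals was not settled by this check. With the replicate block 0 of the 32 genes passed in each of the 7 comparisons, and the number of positive genes and their median were 10 and -0.05 (all genes -0.21) in DEN against untreated liver labelled WT, 17 and 0.04 (0.02) in DEN LKO nontumour liver against DEN liver labelled WT, and 18 and 0.05 (0.24) in tumours against it. In DEN against untreated liver labelled WT the log2 fold change was -0.0076 for Ccn2, -0.029 for Dpt, -0.19 for Reln and -0.059 for Sparc. The block called 10 of all genes in untreated LKO against untreated WT and 0 in tumours against DEN liver labelled WT.

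Counts over all tested genes moved more. Across alternatives they ran from 10 to 96 (60 as reported) in untreated LKO liver against untreated liver labelled WT, from 0 to 1159 (8) in DEN LKO nontumour liver and from 0 to 485 (69) in tumours against DEN liver labelled WT. They ran from 0 to 21 (0) in tumours against DEN LKO nontumour liver, from 0 to 189 (9) in DEN LKO nontumour against untreated LKO liver, and from 0 to 10 (0) for the interaction. In untreated liver, 24 calls were higher and 36 lower, against 56 and 40 under median-ratio scaling. The unknown depth limits the genes near 1 TPM most.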
